A study of Homo sapiens with 6 samples.

Results

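The genes examined were 10 members of the BCL2 family, the proteins that decide whether the outer membrane of the mitochondrion stays intact during apoptosis. They were the rows of the deposited count table named BCL2, BCL2L1, MCL1, BAX, BAK1, BBC3, PMAIP1, BCL2L11, BID and BAD, 10 of 57773 genes, and all 10 passed the filter on low counts. Their RNA was measured in SW872, an established human liposarcoma cell line grown in RPMI medium with fetal bovine serum. The Apatinib group held 3 replicates kept for 24 h with 18 μM Apatinib, an inhibitor of the VEGFR2 receptor tyrosine kinase, and the control group held 3 replicates that received no drug. The cell line was the only model, the labels name no vehicle for the control group, and both groups shared the same culture medium. The question was whether RNA of the genes that start or block mitochondrial apoptosis differed after Apatinib.

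BCL2, BCL-XL (the product of BCL2L1) and MCL1 hold cells alive by binding the death-promoting relatives. BAX and BAK1 are the effectors, which assemble into pores that release cytochrome c. The BH3-only proteins sense damage, growth factor loss or stress and either activate the effectors or occupy the survival proteins, and here they were PUMA (BBC3), NOXA (PMAIP1), BIM (BCL2L11), BID and BAD. Much of their control acts on the protein, by phosphorylation, cleavage or degradation, which RNA counts do not measure.

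The stretch of 250 bases before the transcription start was searched for 6 motifs of factors that are known to act on these genes. RefSeq windows on GRCh38.p14 matched 9 of the 10 genes, with 15 windows in all, and there was none for MCL1. The following 3 are shown because they hold a match to a motif of MYC (the E-box CACGTG), AP-1 (TGANTCA, bound by FOS and JUN) or the FOXO factors (GTAAACA), and because each lies before the only start listed for its gene. They read 5′ to 3′ on the strand of the gene, at chr19:48954625-48954874 on the plus strand for BAX, chr19:47232668-47232917 on the minus strand for BBC3 and chr2:111120664-111120913 on the plus strand for BCL2L11, and capitals mark the matches.
BAX: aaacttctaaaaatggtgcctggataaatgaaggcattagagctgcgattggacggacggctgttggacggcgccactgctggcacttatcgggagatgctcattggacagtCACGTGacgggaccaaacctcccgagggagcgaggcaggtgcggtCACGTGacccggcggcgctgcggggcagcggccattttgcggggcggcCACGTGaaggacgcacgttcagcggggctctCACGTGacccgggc
BBC3: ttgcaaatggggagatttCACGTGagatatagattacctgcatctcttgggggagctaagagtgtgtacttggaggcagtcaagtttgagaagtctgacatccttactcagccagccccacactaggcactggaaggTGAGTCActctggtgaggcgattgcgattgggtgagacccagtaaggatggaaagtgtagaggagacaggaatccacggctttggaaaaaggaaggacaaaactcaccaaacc
BCL2L11: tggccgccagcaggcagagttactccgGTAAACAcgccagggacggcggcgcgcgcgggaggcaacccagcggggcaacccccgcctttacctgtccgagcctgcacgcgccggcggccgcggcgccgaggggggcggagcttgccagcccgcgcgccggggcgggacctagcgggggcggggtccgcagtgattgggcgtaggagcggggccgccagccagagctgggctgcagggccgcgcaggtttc

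The window of BAX held 4 E-boxes, the first bases of which lay 138, 93, 45 and 14 bases before the start. That of BBC3 held 1 E-box, 232 bases before the start, and 1 AP-1 match 113 bases before it. The FOXO match of BCL2L11 lay 223 bases before the start. An E-box also stood in windows of other starts of BID, so that 3 of the 9 genes and 4 of the 15 windows had one, several windows of a gene overlapping. Both strands were searched, and among all 35116 RefSeq windows 6.34% held an E-box, 6.57% an AP-1 match and 2.98% a FOXO match. The STAT motif TTCNNNGAA (6.57% of all windows), the cyclic AMP response element TGACGTCA (1.65%) and the ATF4 element TGATGNAA (3.14%) had no match in the windows of the 9 genes. The marked motifs did not overlap each other in the printed windows, and a match describes the letters only.

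The 6 libraries held between 17043314 and 22067558 counts. Controls 1 and 2 stood far closer to each other than other replicates did, their chi-square averaging 2.27 per gene, against 18.2 to 44.5 for the other pairs within a group. Pairs across the groups gave 26.5 (Apatinib 3 and control 3) to 78.4, below the 44.5 of Apatinib 1 and 2 in some cases. Counting error alone gives a value of 1, and a value above it does not show that controls 1 and 2 came from separate cultures, which the labels do not state. They were kept as separate samples, as labelled, so that p-values measure the spread between these libraries, which may be technical, and values with both summed into 1 sample are given where they change a result. All 10 mesenchymal markers were detected, with summed FPKM of 1881 to 2132 in the Apatinib replicates and 1536 to 1698 in the controls. The adipocyte markers ADIPOQ, FABP4 and CEBPA were at 0 counts in every library, although CEBPA had an FPKM of 0.0579 to 0.319, and the summed FPKM of the 8 adipocyte markers was 23.1 to 32.3 and 21.9 to 24.4, respectively. The summed FPKM of the epithelial, endothelial and haematopoietic lists was 2.69 or lower in every library, and PTPRC and LYZ were at 0. Of the listed markers COL3A1, LPL and VWF were called as higher and CDH5 as lower with Apatinib, and 9 of the 10 mesenchymal markers had log2 fold changes above 0. The share of counts on mitochondrially encoded genes was 5.16% to 5.69% with Apatinib and 4.47% to 5.11% without. The part of these differences in the results below was not tested.

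None of the 10 genes passed the criteria for a differentially expressed gene (DEG), set at an FDR under 0.05 together with more than 0.5 in either direction on the log2 scale. By edgeR's quasi-likelihood test 0 of 10 were called, against 11.5% of the 16290 genes tested, 5.97% in the higher and 5.48% in the lower direction. DESeq2 also called 0 of 10, against 13.5% of all genes, and limma on the log2(FPKM + 1) scale called 0 of the 9 it tested, against 5.03% of all genes. At an FDR under 0.05 with no limit on the fold change, edgeR again called 0 of 10, against 12.9% of all genes, while with no filter on low counts BCL2L1 passed that limit (FDR 0.030). At an unadjusted p under 0.05 there were 2 of 10 genes, BCL2L1 and BBC3, both higher with Apatinib, against 30.6% of all genes in either direction and 15.3% for higher values. DESeq2 had the same 2 genes at that limit, against 29.0% of all genes. BBC3 did not pass it with controls 1 and 2 summed, with the replicate block, or without Apatinib 1, control 1 or control 2. Without control 1 there were 0 of 10 genes at that limit, and without Apatinib 1, without control 3 or with no filter on low counts there were 3. Limma on either FPKM scale had 3 of 9, BCL2L1, BBC3 and BAD. The shares of all genes at that limit were not computed for these fits, so the counts show only which genes moved.

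The CPM values (counts scaled to library size by the TMM method) of the 2 groups did not overlap for 3 of 10 genes, against 33.2% of all genes tested. These were BCL2L1 and BBC3, which were higher in the Apatinib group (2 of 10, against 17.5% of all genes), and BCL2L11, which was lower (1 of 10, against 15.7%). The log2 fold change lay above 0 for 7 of 10 genes, against 50.3% of all genes tested, with a median of 0.31 against 0.0028. Without Apatinib 2 it lay above 0 for 5 of 10 genes, with a median of 0.11. The 95% intervals of 8 genes included 0, and those of BCL2L1 and BBC3 did not. In bulk RNA, fewer cells with a transcript and less of it per cell cannot be told apart.

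**Figure D1:**
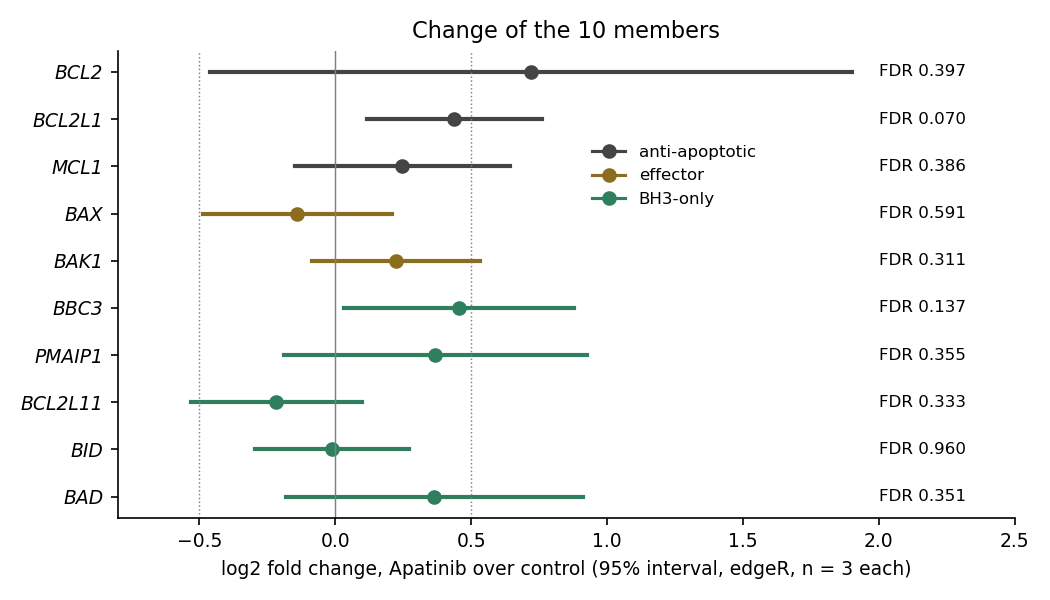
Log2 fold change of each of the 10 genes, Apatinib over control (x axis, edgeR), with the 95% interval as a horizontal bar, 3 replicates per group, and the FDR over all genes tested at the right. The dotted lines mark 0.5 in either direction, and the intervals of BCL2L1 and BBC3 are the 2 that do not reach 0.

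Among the survival genes, BCL2L1 had the smallest p of the 10. Its CPM was 129, 136 and 96.9 in Apatinib 1, 2 and 3 and 79.2, 92.4 and 95.2 in the controls. Every Apatinib replicate lay above every control, but Apatinib 3 exceeded control 3 only slightly. The means were 120.5 ± 20.7 with Apatinib and 88.96 ± 8.57 without (SD, n = 3 each, as for all means here). The log2 fold change was 0.44 (SE 0.147, 95% interval 0.12 to 0.76), with an FDR of 0.070 by edgeR. DESeq2 gave 0.43 with an FDR of 0.047, which passed the FDR limit but not the limit on the fold change. BCL2L1 was called when Apatinib 3 was left out (log2 fold change 0.58, FDR 0.028), and with the other replicates left out in turn it was not called, its FDR reaching 0.286 without control 1. In the GENCODE annotation 1424 of its 3314 exonic bases (43.0%) lie opposite an exon of the antisense gene ABALON, which has no row in the count table. The labels do not say whether the counting used strand, so the reads of the pair cannot be told apart there.

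MCL1, a survival protein with a short life that many stress signals remove, varied more between the Apatinib replicates than between the groups. Its CPM was 171.5, 295.4 and 190.0 in Apatinib 1, 2 and 3 against 190.9, 185.1 and 177.5 in the controls. The high value stood in Apatinib 2 alone, and Apatinib 1 was the lowest of the 6 libraries. The means were 219.0 ± 66.8 and 184.5 ± 6.72, with a log2 fold change of 0.25 (95% interval -0.15 to 0.64) and an FDR of 0.386. Without Apatinib 2 the log2 fold change was -0.023 (FDR 0.907), and without Apatinib 1 it was 0.40 (FDR 0.180).

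BCL2, after which the family is named, had few counts in these libraries. It had 15, 10 and 21 counts with Apatinib and 2, 11 and 18 without. The groups overlapped, and control 1 was the lowest library. Its log2 fold change of 0.72 was the largest of the 10 and also had the widest interval, -0.46 to 1.90 (FDR 0.397). The counts of BCL2 thus left its change undetermined within that interval, and the value was 0.28 without control 1 and 1.26 without control 3.

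**Figure D2:**
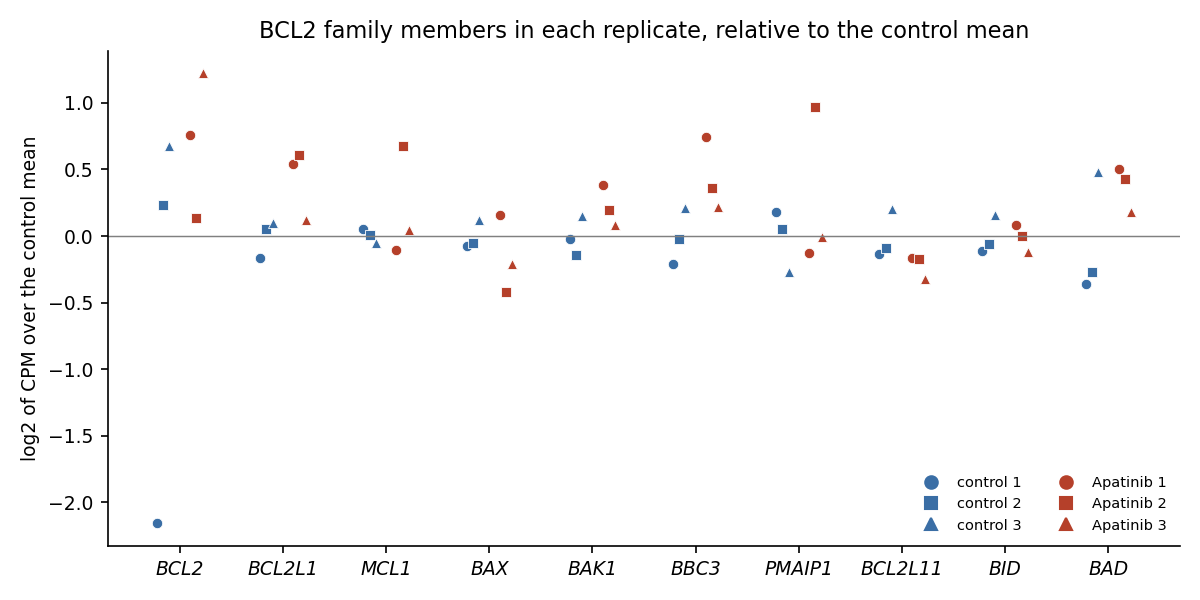
Level of each gene in each replicate as log2 of CPM over the mean CPM of the 3 controls (y axis), with controls in blue and Apatinib replicates in red. Apatinib 2 stands above the other 5 libraries for MCL1 and PMAIP1, and for BCL2L1 and BBC3 all 3 Apatinib replicates lie above the controls.

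Neither effector passed the test. BAX had a CPM of 37.6, 25.2 and 29.1 with Apatinib and 32.1, 32.5 and 36.7 without it. The groups overlapped, with the highest and the lowest of the 6 libraries both in the Apatinib group. On the log2 scale the difference for BAX was -0.14 (95% interval -0.49 to 0.21, FDR 0.591), and it ranged from -0.31 (FDR 0.219) without Apatinib 1 to -0.014 without Apatinib 2. BAK1 had 31.6, 27.8 and 25.7 CPM with Apatinib and 23.9, 21.9 and 27.0 without. Apatinib 3 lay below control 3, so these groups overlapped too. Its log2 fold change was 0.22 (95% interval -0.09 to 0.53, FDR 0.311), and 0.14 without Apatinib 1.

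Of the BH3-only genes, BBC3 stood highest above the controls relative to its error. PUMA, its product, binds all the survival proteins and is a known target of FOXO factors. Its CPM was 12.6, 9.65 and 8.70 in Apatinib 1, 2 and 3 and 6.47, 7.37 and 8.66 in the controls. The groups did not overlap, although Apatinib 3 and control 3 were almost equal. The means were 10.31 ± 2.01 and 7.497 ± 1.102, a log2 fold change of 0.46 (SE 0.193, 95% interval 0.03 to 0.88), and the FDR was 0.137. With 1 replicate left out at a time the log2 fold change of BBC3 ranged from 0.29 without Apatinib 1 to 0.58 without control 3, and it was called in none of these fits. With controls 1 and 2 summed it was 0.40 (FDR 0.340). The promoter window of BBC3 printed above held 1 E-box and 1 AP-1 match, and binding to either was not tested.

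PMAIP1 encodes NOXA, which binds MCL1 and marks it for degradation. Its CPM was 27.0, 57.6 and 29.3 with Apatinib and 33.4, 30.6 and 24.4 without. As for MCL1, the one high library was Apatinib 2, and the other 2 Apatinib replicates lay within the range of the controls. The means were 38.0 ± 17.1 and 29.5 ± 4.63, with a log2 fold change of 0.37 (95% interval -0.19 to 0.92) and an FDR of 0.355. Without Apatinib 2 the log2 fold change of PMAIP1 was -0.057 (FDR 0.830), and without Apatinib 1 it was 0.57 (FDR 0.184).

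Of the 17 tested transcription factors listed as acting on these genes, Apatinib 2 had the highest CPM of the 6 libraries for 10, MYC, JUN, CEBPB, NFKB1, STAT3, FOXO1, FOXO4, ATF4, DDIT3 and ATF3, against 22.5% of all genes tested. DDIT3 and ATF3, both stress-induced, are given as examples chosen after their values were seen. DDIT3 had 16.1, 43.4 and 10.7 CPM in Apatinib 1, 2 and 3 and 12.6 to 15.3 in the controls. ATF3 had 5.24, 24.1 and 3.49 CPM in Apatinib 1, 2 and 3 and 4.72 to 5.94 in the controls. Neither was called (FDR 0.205 and 0.216), and without Apatinib 2 their log2 fold changes were -0.026 and -0.26. ATF4, which can induce both, was instead raised in all 3 Apatinib replicates, with 416, 473 and 366 CPM against 245, 246 and 283. Its log2 fold change was 0.70 (FDR 0.0104 by edgeR), and 0.61 without Apatinib 2, while its FDR was 0.0721 without control 1. The part of Apatinib 2 in the values of MCL1 and PMAIP1 is thus measured, while what set that library apart was not tested.

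BCL2L11, which encodes BIM, an activator of BAX and BAK1 that FOXO3 induces when growth factor signals fall, was the one gene of the 10 with a lower CPM in all Apatinib replicates than in any control. Its CPM was 19.8, 19.8 and 17.8 with Apatinib against 20.3, 20.9 and 25.5 in the controls. In FPKM the groups overlapped, with 3.24, 3.65 and 2.83 against 3.80, 3.27 and 4.08. The gap between the groups in CPM was narrow, and control 3 was the one library that stood away from the rest. Apatinib over control, the log2 fold change was -0.22 (95% interval -0.53 to 0.10, FDR 0.333), and -0.10 without control 3. FOXO3 RNA had a log2 fold change of -0.06 (FDR 0.765). On the opposite strand, exons of MIR4435-2HG cover 727 of the 6658 exonic bases (10.9%) of BCL2L11.

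BID, which links death receptors to the mitochondrion once caspase-8 has cut it, was the least changed of the 10. Its CPM was 40.8, 38.4 and 35.3 with Apatinib and 35.6, 37.0 and 42.9 without. The means of 38.2 ± 2.74 and 38.5 ± 3.89 differed by less than either SD. The log2 fold change was -0.012 (95% interval -0.30 to 0.27, FDR 0.960), so that a change of 0.5 in either direction lay outside the interval. The sign of so small a value turned when Apatinib 3 (0.043) or control 3 (0.076) was left out.

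BAD, which binds BCL2 and BCL-XL unless survival kinases phosphorylate it, had few counts. Its CPM was 5.35, 5.08 and 4.29 with Apatinib and 2.94, 3.13 and 5.27 without, from 51 to 115 counts per library. Controls 1 and 2 were low, and control 3 lay among the Apatinib replicates. The log2 fold change was 0.36 (95% interval -0.18 to 0.91, FDR 0.351), and it ranged from 0.21 (FDR 0.717) without control 1 to 0.69 (FDR 0.071) without control 3.

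For BAD the counts and the FPKM values, which the authors scaled by length, gave different pictures of its level. With 4.29 to 5.35 CPM in the Apatinib group BAD stood below BBC3, yet its FPKM of 34.9, 32.7 and 29.6 was close to that of BCL2L1. The length that would turn the counts into these FPKM values was 125 to 181 bases for BAD, against 1708 exonic bases in GENCODE, a ratio of 0.086. Among 15749 genes compared, 1.17% had a lower ratio, the median was 0.86, and the other 9 genes of the family had ratios of 0.65 to 1.37. The exons of BAD share 404 bases (23.7%) with GPR137 on the opposite strand, and the part of this overlap in the low counts was not tested. In FPKM the groups did not overlap for BAD, with 23.9, 21.98 and 28.9 in the controls. The log2 fold change on the log2(FPKM + 1) scale was 0.37 by limma, with an FDR of 0.104, so that neither unit gave a call.

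**Figure D3:**
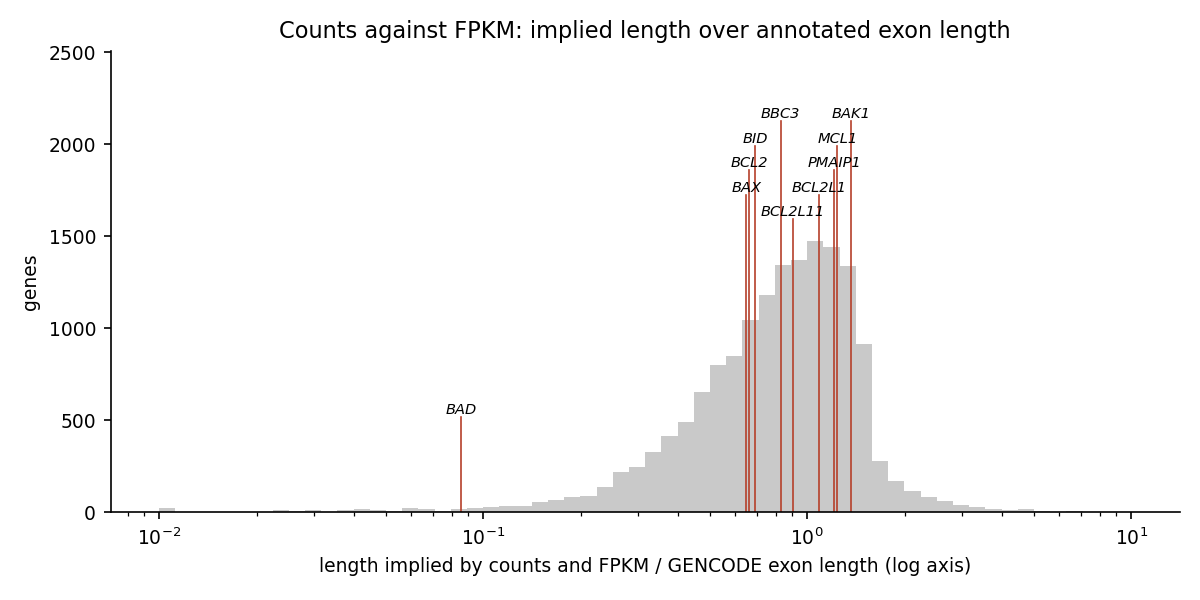
Number of genes (y axis) by the ratio of the length that counts and FPKM together imply to the GENCODE exon length (x axis, log scale), with the 10 BCL2 family genes marked by red lines whose heights carry no value, ratios under 0.01 or over 10 being drawn at those ends. BAD lies at 0.086, apart from the other 9 genes, which fall between 0.65 and 1.37.

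Apart from that contrast for BAD, levels of different genes were compared in FPKM. By the mean of the 6 libraries MCL1 was highest at 37.0, followed by BCL2L1 at 29.04, BAD at 28.65, BAX at 19.2, PMAIP1 and BID at 12.5 each, BAK1 at 8.67, BCL2L11 at 3.48, BBC3 at 3.44 and BCL2 at 0.0892. The FPKM of MCL1 (30.1 to 56.3), BCL2L1 (22.9 to 38.5) and BAD (21.98 to 34.9) overlapped. So did those of PMAIP1 (8.62 to 22.03) with BID (11.7 to 13.4), BAX (14.4 to 21.8) and BAK1 (7.07 to 9.95), and those of BCL2L11 with BBC3. BAX lay below BAD and BCL2L1 in every library, and BCL2, at 0.0120 to 0.164, lay below all others. Neighbours with close means changed places between the groups, BAD standing above BCL2L1 in the controls (24.92 and 24.84) and below it with Apatinib (32.38 and 33.24). PMAIP1 and BID, and BBC3 and BCL2L11, also changed places. The place of BAD in this order rests on the FPKM values discussed above.

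**Figure D4:**
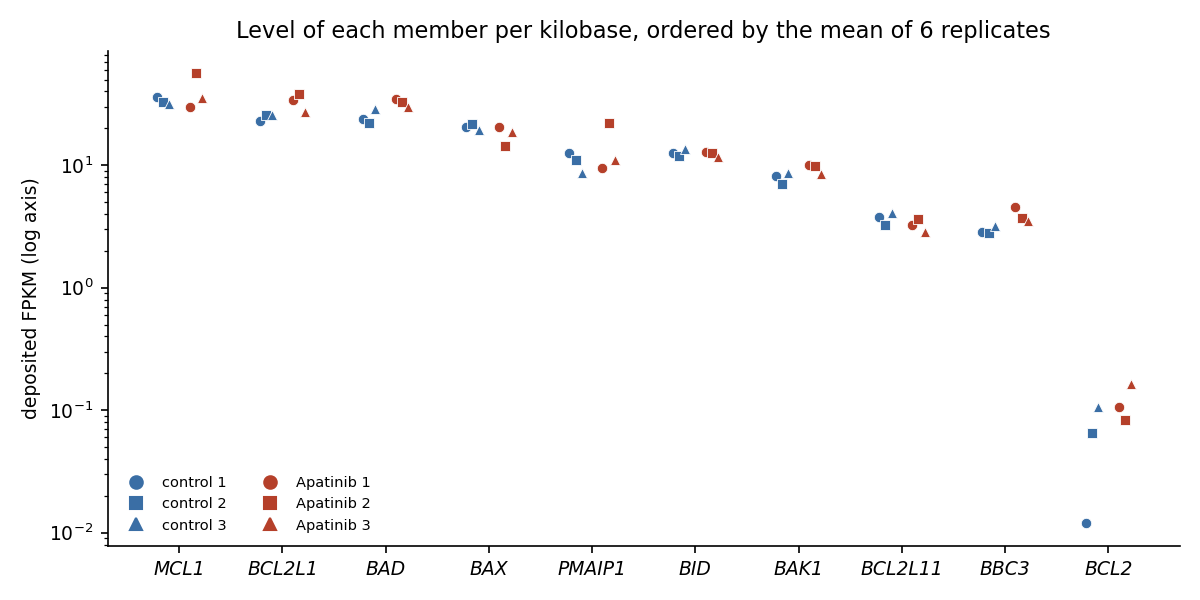
Deposited FPKM of each gene (y axis, log scale) in the 3 control replicates (blue) and the 3 Apatinib replicates (red), ordered from left to right by the mean of all 6. MCL1, BCL2L1 and BAD share the top of the range, and BCL2 stands at 0.0120 to 0.164, below every other gene.

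The survival genes BCL2, BCL2L1 and MCL1 summed to 64.1, 94.8 and 63.1 FPKM in Apatinib 1, 2 and 3 and to 58.8, 59.0 and 57.2 in the controls. All Apatinib replicates were higher, and the largest excess was in Apatinib 2, the library with the high MCL1 value. The effector and BH3-only genes together summed to 95.3, 99.0 and 86.03 against 84.2, 79.8 and 86.1. Their groups overlapped only in that Apatinib 3 lay just below control 3. All 10 genes summed to 159.4, 193.9 and 149.1 against 143.1, 138.8 and 143.3, with no overlap, so the higher sum was not particular to the survival genes. As a share of the summed FPKM of all 10 genes the survival genes were 40.2%, 48.9% and 42.3% with Apatinib and 41.1%, 42.5% and 39.9% without, and these ranges overlapped. With BAD left out of the sum, the shares were 51.4%, 58.9% and 52.8% against 49.4%, 50.5% and 50.0%, and they did not overlap. Whether the share differed between the groups thus depended on 1 gene whose FPKM and counts disagree.

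The ratio of BAX to BCL2L1 in FPKM, a common summary of the balance between an effector and a survival protein, was 0.602, 0.375 and 0.687 with Apatinib and 0.893, 0.844 and 0.748 without. It was lower in each Apatinib replicate than in any control. The ratio of BAK1 to BAX was 0.488, 0.679 and 0.454 against 0.396, 0.324 and 0.444, higher in each Apatinib replicate by a narrow margin at the boundary. The ratio of PMAIP1 to MCL1 was 0.315, 0.391 and 0.312 against 0.353, 0.334 and 0.276, and the groups overlapped. In Apatinib 2, where both transcripts were at their highest, that ratio was thus the highest of the 6 but near that of control 1. The ratio of BAX to MCL1, the survival gene with the highest FPKM, was 0.677, 0.256 and 0.530 with Apatinib and 0.568, 0.659 and 0.617 without, and the groups overlapped. The ratio of BBC3 to BCL2L1 was 0.135, 0.0969 and 0.128 with Apatinib and 0.124, 0.108 and 0.124 without. That of BCL2L1 to MCL1 was 1.125, 0.683 and 0.772 against 0.636, 0.781 and 0.825, and the groups overlapped for both. All these ratios were chosen with the values of the genes known and were not tested.

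Other genes of the pathway were grouped by role in 7 lists. Of the remaining BCL2 family, 9 of 14 genes were tested and 2 were called (22.2%, median log2 fold change -0.07). BOK, a relative of BAX and BAK1, was higher, with 53.5, 44.8 and 45.0 CPM against 31.3, 31.7 and 36.0 in the controls (0.53, FDR 0.0265). BNIP3, a mitophagy receptor induced by hypoxia, was lower, with 46.6, 45.2 and 48.0 CPM against 68.0, 68.9 and 70.7 (-0.57, FDR 0.0120). Its relative BNIP3L had a log2 fold change of -0.47 (FDR 0.0386), under the limit on the fold change. Of the other survival genes, BCL2A1 had 1.07 CPM or less in every library (log2 fold change 1.33, FDR 0.157, ranging from 0.85 without control 3 to 2.25 without control 2). BCL2L2 had -0.08 (FDR 0.734).

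Of 12 genes of the apoptosome, the intermembrane space and other mitochondrial factors such as the VDAC channels and PPIF, 2 were called (16.7%, median -0.01). Both fell, APAF1, the scaffold of the apoptosome, by 0.60 on the log2 scale (FDR 0.0393) and CYCS, which encodes cytochrome c, by 0.51 (FDR 0.0387). SEPT4, a septin gene counted here over all its isoforms, had 0.50 (FDR 0.0706). Of 11 caspases and executioners tested 3 were called (27.3%, median 0.09), in both directions. CASP9, the initiator that APAF1 recruits, rose by 0.62 (FDR 0.0313) and DFNA5, also known as GSDME, a pore-forming protein that caspases can cut, by 0.77 (FDR 0.00568). CASP2, an initiator caspase, fell by 0.58 (FDR 0.0171). All 6 inhibitors of apoptosis tested had log2 fold changes below 0, against 49.7% of all genes (median -0.62), though XIAP was at 0.0005 without Apatinib 1. Of these 6, 1 was called (16.7%), BIRC5, which encodes survivin and is made mainly by dividing cells, at -0.61 (FDR 0.0477). BIRC2 had -0.63 (FDR 0.0626) and NAIP, at 0.339 to 1.44 CPM, -1.03 (FDR 0.0999). In FPKM the groups overlapped for NAIP, with 1.19, 1.45 and 1.97 against 2.19, 2.15 and 1.82. Limma on the log2(FPKM + 1) scale gave -0.28 for it (FDR 0.263).

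Upstream, 0 of 13 death receptors and adaptors were called by edgeR (median 0.21, and 0.09 without Apatinib 2). An unadjusted p under 0.05 was found for 3 of 13, against 30.6% of all genes, and DESeq2 called 1 of 13, TNFRSF10B, against 13.5%. TNFRSF21, also called DR6, had 0.43 (FDR 0.0416), under the limit on the fold change. FAS had -0.54 (FDR 0.0675) and TNFRSF10B, the TRAIL receptor DR5, 0.51 (FDR 0.0868), with 206 CPM in Apatinib 2 against 129 and 118 in the other Apatinib replicates. Of 17 transcription factors 3 were called (17.6%, median 0.44), all higher, and without Apatinib 2 the median was 0.09. Besides ATF4 they were FOS, with 14.0, 13.7 and 26.8 CPM against 1.62, 2.09 and 1.97 (log2 fold change 3.25, FDR 0.000315), and STAT5A (0.81, FDR 0.0128), an inducer of BCL2L1 in blood cells. MYC had 0.08 (FDR 0.873), and -0.39 (FDR 0.0976) without Apatinib 2. Of 30 genes whose products ubiquitinate, deubiquitinate, phosphorylate or bind BCL2 family proteins or their regulators, 14-3-3 proteins and dynein light chains included, 1 was called (3.33%, median -0.03), RPS6KB1, the S6 kinase that phosphorylates BAD, which fell by 0.80 (FDR 0.0139). PIM1, another BAD kinase, had 0.48 (FDR 0.0460), and USP13, a deubiquitinase of MCL1, -0.36 (FDR 0.0884). The lists hold between 6 and 30 tested genes, and the shares called are to be read against the 11.5% of all genes. At an unadjusted p under 0.05 the other BCL2 family had 6 of 9 and the apoptosome 3 of 12, against 30.6% of all genes. The caspases had 4 of 11, the inhibitors of apoptosis 5 of 6, the transcription factors 8 of 17 and the regulators 6 of 30.

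**Figure D5:**
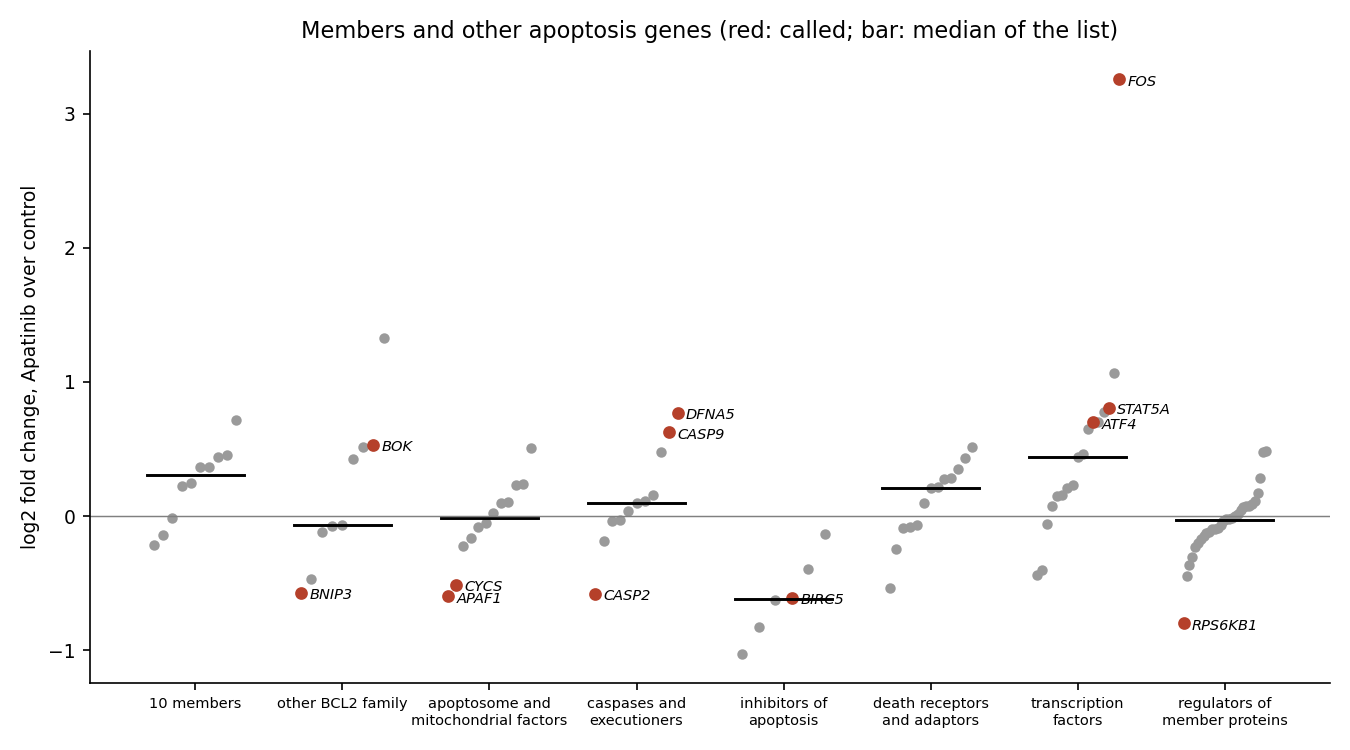
Log2 fold change, Apatinib over control (y axis), of every gene reported in the 10 BCL2 family genes and in the 7 wider lists, with the called genes in red and named, the others in grey, and the median of each list as a black bar. No gene of the first column is red, and all 6 inhibitors of apoptosis lie below 0.

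Of the 12 called genes on the wider lists only DFNA5 and FOS were called in each fit that left out 1 replicate. The other 10 lost the call without control 1 (FDR 0.0708 to 0.161), without control 2 (0.0678 to 0.185), or with controls 1 and 2 summed (0.0706 to 0.165). Without Apatinib 1 the call was lost for 4 (APAF1, BOK, CASP9 and CYCS, FDR 0.0795 to 0.113). Without Apatinib 2 5 were lost, of which APAF1, BIRC5, CASP9 and CYCS exceeded the FDR limit (up to 0.0750) and CASP2 fell under the fold limit. Without Apatinib 3 or control 3 BIRC5 was lost (FDR 0.0760 and 0.0763). The 10 BCL2 family genes had no call to lose, and no gene but BCL2L1 gained one.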

How the data were processed

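RNA of SW872 cells, extracted as mRNA according to the study's methods and labelled total RNA, was sequenced on an Illumina instrument, with 3 biological replicates per condition as the methods state. Groups follow the treatment given in the labels, which name no batch. The authors deposited raw counts per gene, whole numbers for 57773 genes, and FPKM values, which the authors scaled by transcript length and library. The submitters' processing notes name CASAVA, STAR 2.7.1a and hg19, and the counting program, annotation and strand setting are not given in the sources used here. One column headed as a control inside the FPKM values of Apatinib 1 was not used (1 column).

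The counts were tested in R 4.3.3 with edgeR 4.0.16 (filterByExpr, TMM factors of 0.952 to 1.03, glmQLFit and glmQLFTest over the whole table of 16290 genes kept, Benjamini-Hochberg adjustment), and the biological coefficient of variation was 0.149. SE and 95% intervals came from the same fit. The limits of an FDR under 0.05 and 0.5 on the log2 scale were those of the study's methods, which used DESeq2. Alternatives were DESeq2 1.42.0, RLE scaling, no filter (a total of 1 count or more), a floor of 10 counts per library, a replicate block by number, each replicate left out, controls 1 and 2 summed, and limma 3.58.1 on the FPKM values as log2 with a pseudocount of 1 or 0.1, where the mean FPKM exceeded 0.5. The deviations of same-numbered replicates correlated at -0.26, 0.081 and -0.22. With 3 replicates per group, and controls 1 and 2 close together, these values cannot decide whether the numbers pair the samples. The statistical scripts were tested on simulated data.

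Exon lengths and overlaps were taken from GENCODE release 29 on GRCh38, which held 52338 (90.6%) of the identifiers. As the files use hg19, no coordinates were joined. The 10 genes and the 7 lists were chosen with earlier results of these data known. Named genes were the 10, every called gene of a list and the 3 with the smallest p of each list, and BCL2A1, BCL2L2, MYC, FOXO3 and the factors highest in Apatinib 2 were added after their values were seen. Some genes of the lists are not reported here and were left out of the list counts. Protein, flow cytometry and animal data were not analysed here. Intervals and counts cover the spread between these samples only.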

Additional observations from a re-analysis of the deposited data

How the results depend on the processing

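Among the 10 BCL2 family genes 0 were called under DESeq2, RLE scaling, both filters, the replicate block, summed controls and both limma scales. The count ranged from 0 to 1 with 1 replicate left out (1 without Apatinib 3, BCL2L1). Over all genes 2202 of 16290 were called by DESeq2, 796 of 15829 by limma on log2(FPKM + 1) and 2030 of 16768 without Apatinib 3. With summed controls only 292 of 16731 were called, so that 0 of 10 there says little about these genes. With 1 replicate left out the log2 fold change ranged from 0.35 to 0.58 for BCL2L1, from -0.023 to 0.40 for MCL1, from -0.057 to 0.57 for PMAIP1 and from -0.071 to 0.076 for BID, and in these fits MCL1, PMAIP1 and BID changed sign. No gene of the 10 changed sign under the other alternatives. BCL2 could not be tested with the floor of 10 counts per library or by limma, because it was left out by those filters. Whether the numbers pair the samples is not known. With the replicate block all genes gave 2215 calls against 1866, the inhibitors of apoptosis 3 against 1 and the transcription factors 5 against 3.

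The counts called on the wider lists ranged, with 1 replicate left out, from 0 to 4 for the other BCL2 family (2 with all replicates), 0 to 2 for the apoptosome (2), 1 to 3 for the caspases (3), 0 to 2 for the inhibitors of apoptosis (1), 0 to 2 for the death receptors (0), 1 to 5 for the transcription factors (3), 0 to 3 for the regulators (1) and 275 to 2594 for all genes. With controls 1 and 2 summed these counts were 0, 0, 1, 0, 0, 1, 0 and 292, in the same order. DESeq2 called 2 inhibitors of apoptosis, 1 death receptor and 5 transcription factors. Without a filter there were 1, 3, 1 and 7 calls for the apoptosome, inhibitors of apoptosis, death receptors and transcription factors. Limma on either FPKM scale called 0 genes of the apoptosome and 0 inhibitors of apoptosis, and 796 or 810 genes in all with a pseudocount of 1 or 0.1. An FDR under 0.05 alone gave 1 death receptor and 2 regulators. The cause of these differences was not tested. BCL2 (2 to 21 counts) and BAD (51 to 115 counts) had the fewest counts of the 10 genes.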
